A study of Mus musculus with 31 samples.

Results

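The genes described here encode the proteins of the cytosolic ribosome, with the relatives that carry the same kind of name. They were taken from the array's gene names as every gene whose symbol begins with Rpl or Rps and a digit, with Rplp and a digit, or is Rpsa, and the 4 genes of the ribosomal S6 kinases were left out. A total of 73 genes of 15096 named genes met this rule, measured by 81 probes. Of these genes, 62 encode structural proteins by name, 36 of the large subunit, 23 of the small subunit and 3 of the stalk of the large subunit. The other 11 are by name 7 paralogs, 2 pseudogenes, 1 retrogene and 1 binding protein. Of the paralogs by name, RefSeq lists Rps4l as a transcribed pseudogene. For 65 genes there was 1 probe, and the 2 probes of the remaining 8 were averaged. Another 5 probes listed a ribosomal protein beside other names and were left out, and Rps27a and Rack1 were not found among the single gene names.

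Transcript ratios were measured on spotted 2-colour arrays in 31 BXD recombinant inbred strains of mice, 7 from BXD33-42 and 24 from BXD1-32. BXD strains descend from a cross of C57BL/6J with DBA/2J and are inbred, so that each is homozygous for the allele of either parent at nearly every locus. Per the labels the animals were males aged 8 weeks, RNA of 3 animals was pooled for each strain, and each pool was hybridized once in red (Alexa Fluor 647) against a C57BL/6J reference in green (Alexa Fluor 555) to which spike-in RNA had been added. No array had the dyes exchanged, so the mean over strains holds strain, dye and reference effects, which cannot be told apart. The sample titles name kidney and the source fields whole brain. A ratio to a reference of the same tissue gives no level of a marker gene, so the tissue could not be checked from levels. Whether the spread of marker genes over strains bears on the tissue was not tested. The split into BXD33-42 and BXD1-32 comes from background knowledge that the higher numbers were bred later, and the labels do not give it. Nothing in the labels says that any strain was measured more than once, and p-values therefore measure the spread between arrays of different strains. The p-values of means over strains leave out the spread of the reference. The values are read as log2 of strain over C57BL/6J, the likely convention of the authors' software, since base and direction are not given in the sources used here. On that reading a value of 1 is 2 times the reference. The arrays of 2 strains lay at the ends of the leading principal components of the other genes, BXD38 on components 1 and 2 and BXD15 on components 3 and 4. Without both, 54 members were higher than C57BL/6J, as many as with them. In pooled tissue RNA, fewer cells of a type and less RNA per cell cannot be told apart.

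A ribosome consists of a small subunit, which reads the messenger RNA, and a large subunit, which joins amino acids, and each is built of ribosomal RNA and many proteins. The acidic stalk proteins of the large subunit recruit the elongation factors. Messenger RNAs of ribosomal proteins are among the most abundant of most cells, and in mammals their translation is controlled together through a pyrimidine-rich start of the transcript. Several of the proteins also act outside the ribosome, such as Rpl5 and Rpl11, which bind the p53 regulator Mdm2.

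Promoter sequence of RefSeq (GRCm38.p6) was found for 58 members with 70 windows, each from 250 bases before to 50 bases after a transcript start. The letters CCGGAAG, a sequence of the kind bound by ETS family factors, stood on either strand in 37.1% of the members' windows and in 8.86% of all 32851 windows. The letters GGGCGG, the core of the GC box, stood on either strand in 60.0% of the members' windows and 35.7% of all. An unbroken run of at least 8 C or T on the sense strand from 20 bases before to 20 after the start was found in 37.1% of the members' windows and 16.0% of all. The letters CTCTTT occurred in that stretch in 7.14% and 1.54% of windows, and TATAAA between 40 and 15 bases before the start in 1.43% and 1.99%. These matches describe letters and not sites in use. The 25 members with CCGGAAG had a median mean log2 ratio of 0.53 and the 33 without it 0.39, while the 25 with the run of C or T had 0.40 and the 33 without it 0.44. For GGGCGG the medians were 0.52 in the 36 members with it and 0.35 in the 22 without.

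The windows below reach from 150 bases before to 20 bases after the start, 5′ to 3′ on the gene's strand, with CCGGAAG and GGGCGG in capitals on either strand (written CTTCCGG and CCGCCC where they lie on the other strand). They belong to the 4 members with 1 annotated start that followed the other members most closely over strains and to the 2 that followed them least, so that both ends of the covariation described further on can be seen beside their sequence. Rps6 lies at chr4:86857348-86857517 (minus strand), Rps15 at chr10:80292281-80292450 (plus strand), Rpl22l1 at chr3:28805358-28805527 (plus strand) and Rps28 at chr17:33824543-33824712 (minus strand). The members that followed least are Rps23rg1 at chr8:3567848-3568017 (plus strand) and Rps2 at chr17:24719913-24720082 (plus strand). Rps2, with a low ratio and a correlation of -0.06 with the other members, holds both motifs in this stretch, whereas Rps15 and Rps28, with correlations of 0.776 and 0.763, hold neither.
Rps6: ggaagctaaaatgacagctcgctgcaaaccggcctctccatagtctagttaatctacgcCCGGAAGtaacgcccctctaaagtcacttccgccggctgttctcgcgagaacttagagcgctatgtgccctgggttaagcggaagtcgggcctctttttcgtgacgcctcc
Rps15: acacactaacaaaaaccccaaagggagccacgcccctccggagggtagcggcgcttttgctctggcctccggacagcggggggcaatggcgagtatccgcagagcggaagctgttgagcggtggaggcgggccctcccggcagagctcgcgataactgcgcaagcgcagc
Rpl22l1: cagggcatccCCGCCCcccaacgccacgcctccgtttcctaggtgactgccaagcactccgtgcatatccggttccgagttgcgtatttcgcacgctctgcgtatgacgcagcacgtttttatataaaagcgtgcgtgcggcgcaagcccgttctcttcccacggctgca
Rps28: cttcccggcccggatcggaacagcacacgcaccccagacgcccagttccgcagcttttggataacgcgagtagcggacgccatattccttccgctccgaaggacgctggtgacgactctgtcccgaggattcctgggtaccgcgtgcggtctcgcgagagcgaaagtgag
Rps23rg1: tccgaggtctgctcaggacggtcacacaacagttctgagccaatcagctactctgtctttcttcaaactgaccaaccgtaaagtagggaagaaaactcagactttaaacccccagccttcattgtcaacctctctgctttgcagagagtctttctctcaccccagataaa
Rps2: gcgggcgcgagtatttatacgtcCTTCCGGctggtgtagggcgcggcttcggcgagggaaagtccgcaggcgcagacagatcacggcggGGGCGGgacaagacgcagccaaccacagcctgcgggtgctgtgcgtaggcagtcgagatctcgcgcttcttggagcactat

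Ribosomal protein transcripts were on the whole above C57BL/6J in the BXD panel. The mean over the 31 strains was higher than 0 for 54 of the 73 genes and lower for Rpl23 and Rps2, while 17 did not pass the test (limma, 2-sided, Benjamini-Hochberg adjusted p under 0.05 over all genes). Over all 15096 genes 55.8% were called, 26.5% higher and 29.3% lower, so 74.0% of the members against 26.5% of all genes were called higher. The median of the members' means was 0.43, against -0.01 over all genes. Means above 1 were found in 9 members and in 0.238% of all genes. In 7 members, which were Rps28, Rps19, Rps7, Rpl19, Rpl36al, Rpl6 and Rps10, the ratio was above 0 in all 31 strains, which held for 0.861% of all genes. The place of a probe in the order of spots moves with these values. Places 33 to 40 of a repeat of 480 spots held 34 of the 81 member probes, whose median was 0.59 against 0.08 for the other probes there, and elsewhere the medians were 0.31 for member probes and -0.02 for other probes. With the mean of each place removed from each array, 57 members were higher and the median was 0.40.

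**Figure D1:**
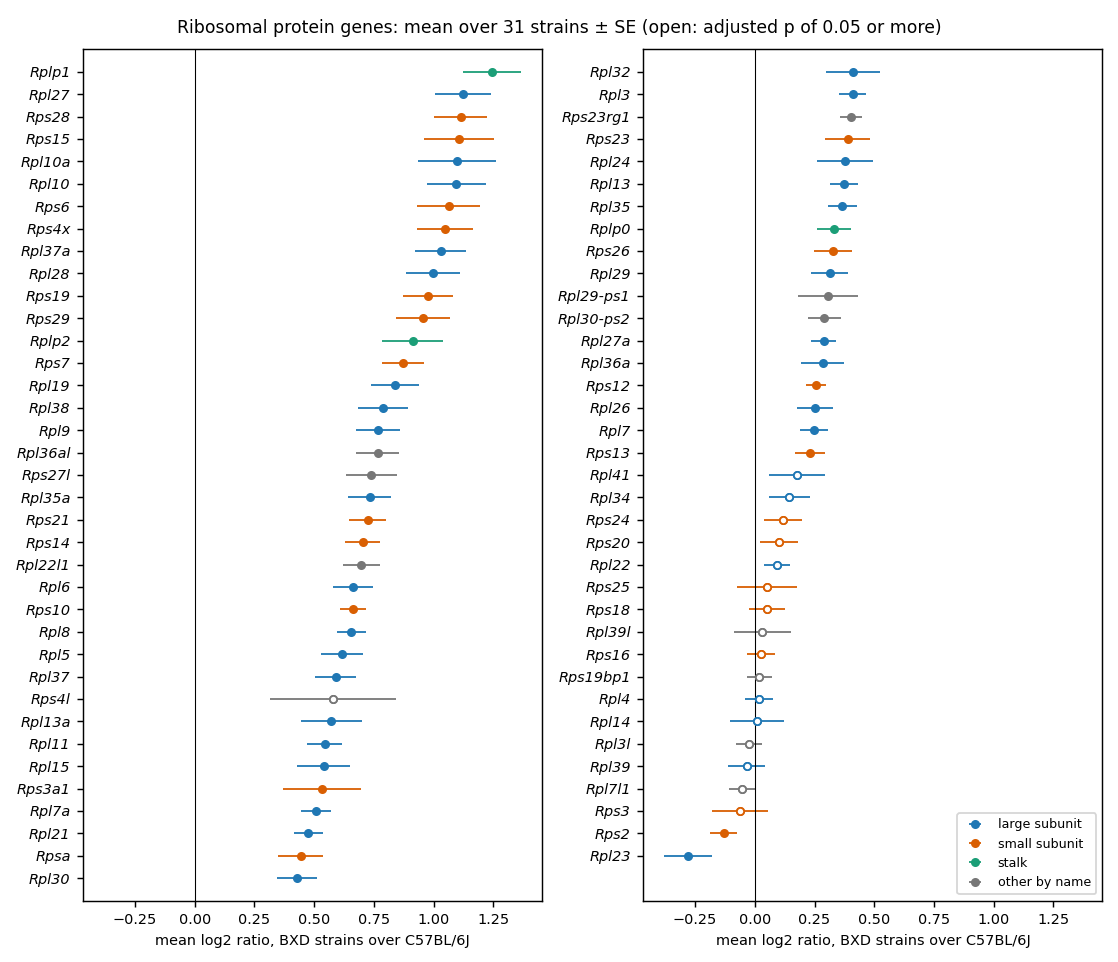
Mean log2 ratio over C57BL/6J of each of the 73 genes over 31 BXD strains (x axis), with its standard error as a bar, ordered from the highest to the lowest and coloured by subunit. Open points did not pass an adjusted p of 0.05. Means run from -0.28 for Rpl23 to 1.24 for Rplp1, and 67 of the 73 lie above 0.

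Transcripts of the 3 stalk proteins all had higher ratios in the BXD strains. Rplp1, of the acidic stalk, had the highest mean of all members. Its log2 ratio was -0.0024 in BXD28 at the lowest, 1.31 at the median and 2.77 in BXD12 at the highest, with a mean of 1.24 ± 0.123 (SE, n = 31 strains, limma adjusted p = 5.82e-10). Only BXD28 was not above the reference. Rplp2, its partner in the stalk, had a median of 0.73 over strains, within -0.16 to 2.96, and a mean of 0.91 ± 0.129 (limma adjusted p = 3.97e-07). Rplp0, the base that anchors both, ran from -0.89 in BXD15 to 1.19 in BXD24 and averaged 0.33 ± 0.0717 (limma adjusted p = 2.00e-04). The transcript of the base was thus nearer the reference than those of the proteins it carries, a difference in mean ratio that was not tested. Rplp0 had 2 probes, with means of 0.46 and 0.20 and a correlation of 0.462 over strains.

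In the large subunit 29 of 36 genes were higher, 1 was lower and 6 did not pass, with a median of 0.45. Rpl27 led with a median of 1.09 over strains, a range of -0.19 to 2.84 and a mean of 1.12 ± 0.117, above 0 in 30 of 31 strains. Rpl10a, part of the L1 stalk at the exit side, ranged from -0.88 in BXD8 to 3.20 in BXD20 around a median of 1.01. It was below 0 in 4 strains, and its mean was 1.10 ± 0.163. Rpl10, which joins the subunit late in its assembly, ranged from -0.74 in BXD15 to 2.62 in BXD11 with a mean of 1.09 ± 0.122. Rpl37a averaged 1.03 ± 0.107 and Rpl28 1.00 ± 0.115. For these 5 genes the largest adjusted p in limma was 9.03e-07, that of Rpl10a. Rpl5 and Rpl11, which form a complex with the smallest ribosomal RNA of the large subunit, were also higher. Rpl5 ran from -0.31 to 1.70 with a mean of 0.62 ± 0.0875, above 0 in 26 strains. Rpl11 ran from -0.36 to 1.24 with a mean of 0.54 ± 0.0715, above 0 in 27 strains. The partners in that complex were therefore close to each other in mean ratio.

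At the other end, Rpl23, a large subunit protein that like Rpl5 and Rpl11 binds Mdm2, was lower. Its ratio ran from -1.48 in BXD33 to 1.05 in BXD38, with a median of -0.35 and a mean of -0.28 ± 0.0997 (limma adjusted p = 0.0173), below 0 in 22 of 31 strains. Both its extremes were strains of BXD33-42. Within the 10 strains BXD1-14 its mean was -0.70 ± 0.296 (SD), while it was -0.14 ± 0.463 (SD) in the 14 strains BXD15-32 and 0.042 ± 0.803 (SD) in the 7 of BXD33-42. Its call was made from 2 probes with means of -0.05 and -0.51 and a correlation of 0.150 over strains. Rpl39, a very small protein of the exit tunnel, averaged -0.03 (limma adjusted p = 0.733), from -0.83 to 0.65. Rpl4, which reaches into the same tunnel, averaged 0.02 and ranged from -0.75 to 0.45. Rpl14 averaged 0.01, with -2.31 in BXD15 and 1.52 in BXD11 at its ends. None of these 3 passed the test.

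In the small subunit 16 of 23 genes were higher, 1 was lower and 6 did not pass, with a median of 0.44. Rps28 was above 0 in every strain, from 0.12 in BXD9 through a median of 1.06 to 2.82 in BXD18, with a mean of 1.11 ± 0.112 (limma adjusted p = 8.04e-10). Rps15, needed in human cells for export of the subunit from the nucleus, had its lowest ratio of -0.19 in BXD28, a median of 0.88, a highest of 3.29 in BXD2 and a mean of 1.11 ± 0.147. Rps6, the substrate of the S6 kinases, ran from -0.03 in BXD28 to 2.93 in BXD2 with a mean of 1.06 ± 0.132. Rps4x, encoded on the X chromosome, averaged 1.05 ± 0.118, with BXD28 lowest at -0.84. Rps19, mutated in human Diamond-Blackfan anaemia, ran from 0.04 to 2.20 and averaged 0.98 ± 0.105, above 0 in all strains. Rps29 averaged 0.95 ± 0.113. The adjusted p in limma was at most 1.31e-07 for these 6 genes, that of Rps15. BXD28 was the lowest strain for Rps15, Rps6, Rps4x and Rps29 alike, and also for Rplp1 and Rplp2. Rpsa, which is known also as a laminin receptor, averaged 0.44 ± 0.0926 (limma adjusted p = 1.35e-04), from -0.81 in BXD15 to 1.56 in BXD2. Its call was lost with the more variable of its 2 probes alone, at 0.25 (limma adjusted p = 0.106).

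Rps2, at the entry of the messenger RNA channel, was lower by a small margin. It ran from -0.98 in BXD33 to 0.58 in BXD18 around a median of -0.11, with a mean of -0.13 ± 0.057 (limma adjusted p = 0.0498), and was below 0 in 21 of 31 strains. Under several other settings given at the end this call was lost. Rps3, which sits near Rps2 and is known also for a role in DNA repair, averaged -0.06 ± 0.117 (limma adjusted p = 0.678) over a range of -1.62 in BXD23 to 0.80 in BXD20. That mean joins unlike ranges of strains. Rps3 averaged -0.36 ± 0.642 in BXD33-42, -0.28 ± 0.748 in BXD15-32 and 0.45 ± 0.233 in BXD1-14 (SD). Rps3a1 had the same order, with means of 0.12 ± 0.243, 0.16 ± 0.869 and 1.34 ± 0.949 in those ranges (SD). These ranges of strain numbers were compared after earlier results had shown that arrays differ along strain order, and the cause was not tested.

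Of the 11 genes that are ribosomal by name but not structural, 6 were higher, none was lower and 5 did not pass, with a median of 0.31. Among the paralogs, Rpl36al, a close copy of Rpl36a, averaged 0.77 ± 0.0912 and was above 0 in all 31 strains. Rps27l, a p53 target in human cells, averaged 0.74 ± 0.106, from -0.79 in BXD15 to 2.53 in BXD20. Rpl22l1 averaged 0.70 ± 0.0771 from -0.01 to 1.65, while its parent Rpl22 averaged 0.09 ± 0.0527 from -0.58 to 0.60 and did not pass the test (limma adjusted p = 0.134). The paralogs known for narrow expression did not pass. Rpl3l, of heart and skeletal muscle, averaged -0.02 ± 0.0557, and Rpl39l, of testis, 0.03 ± 0.118. Rpl7l1 averaged -0.05 ± 0.0549, from -0.56 in BXD34 to 0.61 in BXD1. The retrogene Rps23rg1 averaged 0.40 ± 0.0463 (limma adjusted p = 1.02e-08), beside 0.39 ± 0.0933 for Rps23, from which it derives. With spot places removed the means were 0.21 for Rps23rg1 and 0.40 for Rps23. The pseudogenes Rpl29-ps1 and Rpl30-ps2 averaged 0.31 ± 0.125 and 0.29 ± 0.0692, beside 0.31 ± 0.0782 for Rpl29 and 0.43 ± 0.0841 for Rpl30. With spot places removed Rpl29-ps1 averaged 0.12 and lost its call (limma adjusted p = 0.422), with Rpl29 at 0.48, while Rpl30-ps2 remained at 0.29. Probes for such copies can take up transcripts of their parents, and the ratios of the pairs are uncertain in that respect. Rps19bp1, a nucleolar protein that binds Rps19, averaged 0.02 ± 0.0533 and did not pass. With spot places removed it averaged 0.20 and did pass (limma adjusted p = 5.72e-04).

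Rps4l, a copy of Rps4x that RefSeq lists as a transcribed pseudogene, varied more than any other member. It ran from -2.38 in BXD31 to 3.34 in BXD12 with a median of 0.69, and its SD over strains was 1.58, against a median SD of 0.507 over members and 0.358 over all genes. The mean of 0.58 ± 0.264 did not pass the test (limma adjusted p = 0.0619), with 20 strains above 0 and 11 below. By range of strain numbers it averaged 0.20 ± 1.40 in BXD33-42, -0.14 ± 1.47 in BXD15-32 and 1.85 ± 1.10 in BXD1-14 (SD). It correlated at 0.00 with the mean of the other members and at 0.0998 with Rps4x over the 31 strains. Chosen after their values were seen, the genes most like it over strains were Smchd1 at 0.961, Zfp358 at 0.951, Tapbp at 0.948, Tial1 at 0.937 and Rfx5 at 0.919. RefSeq places them on chromosomes 17, 8, 17, 7 and 3 in that order, and Rps4l on chromosome 6. The cause of the likeness was not tested. These correlations describe arrays that share a reference, a dye orientation and a normalization.

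After Rps4l, the members with the largest SD over strains were Rpl10a at 0.969, Rps3a1 at 0.965, Rps15 at 0.871 and Rps6 at 0.779. Rpl10a, Rps15 and Rps6 were thus among both the highest and the most variable members, while Rps3a1 had a mean of 0.53 ± 0.162. The smallest SDs were 0.20 for Rps12, 0.242 for Rps23rg1, 0.276 for Rpl27a, 0.285 for Rpl22 and 0.289 for Rps19bp1. Rps12 and Rpl27a were averages of 2 probes that correlated at -0.270 and 0.308, and averaging unlike probes narrows an SD. Rps10 had an SD of 0.292 around a mean of 0.66 ± 0.0537 and was above 0 in all strains, from 0.05 in BXD33 to 1.25 in BXD2.

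Strains differed in how far the whole group was raised. The median over the 73 members was above 0 in 29 of 31 strains. In BXD33-42 it was lowest in BXD33 at 0.28, had a median of 0.51 and was highest in BXD34 at 0.61. In BXD1-32 it was lowest in BXD15 at -0.09, had a median of 0.48 and was highest in BXD2 at 0.88. The values of BXD33-42 lay wholly inside the range of BXD1-32, with an SD of 0.118 over 7 strains against 0.250 over 24. BXD9 at -0.02 and BXD8 at 0.04 were next to BXD15, and BXD12 at 0.79 and BXD18 at 0.73 next to BXD2. The number of members above 0 ran from 28 of 73 in BXD15 to 70 in BXD1, with a median of 62. BXD15 was the lowest strain for 18 members, BXD9 and BXD28 for 10 each and BXD8 for 7. BXD15 also had the lowest ratio of the glycolytic gene Gapdh, at -1.20. Without BXD15 the median of the members' means was 0.48 and 54 members were higher.

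**Figure D2:**
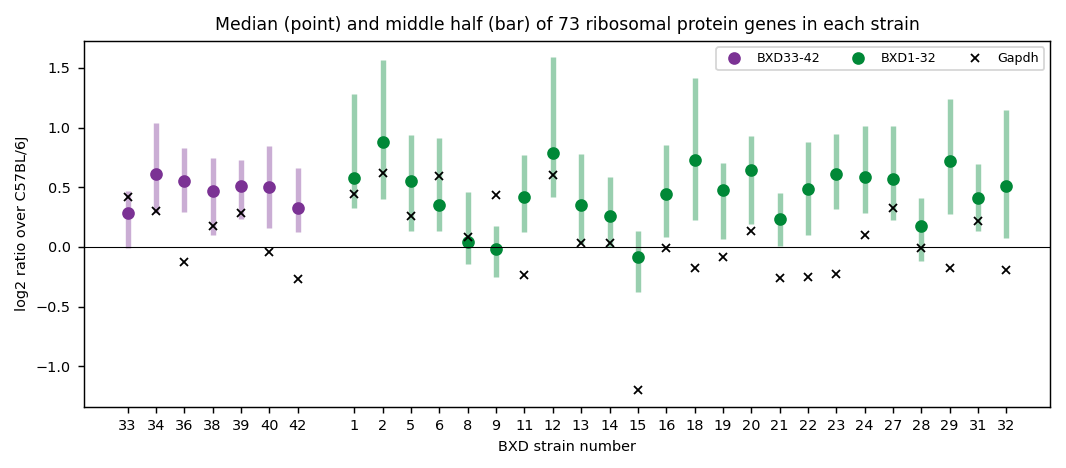
Median of the 73 ribosomal protein genes in each strain (points) with the span from their lower to their upper quartile (bars), as log2 ratio over C57BL/6J, for BXD33-42 at the left and BXD1-32 at the right. Crosses are Gapdh in the same strains. Medians of BXD33-42 lie from 0.28 to 0.61 and those of BXD1-32 from -0.09 to 0.88, with BXD15 lowest in both the median and Gapdh.

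**Figure D3:**
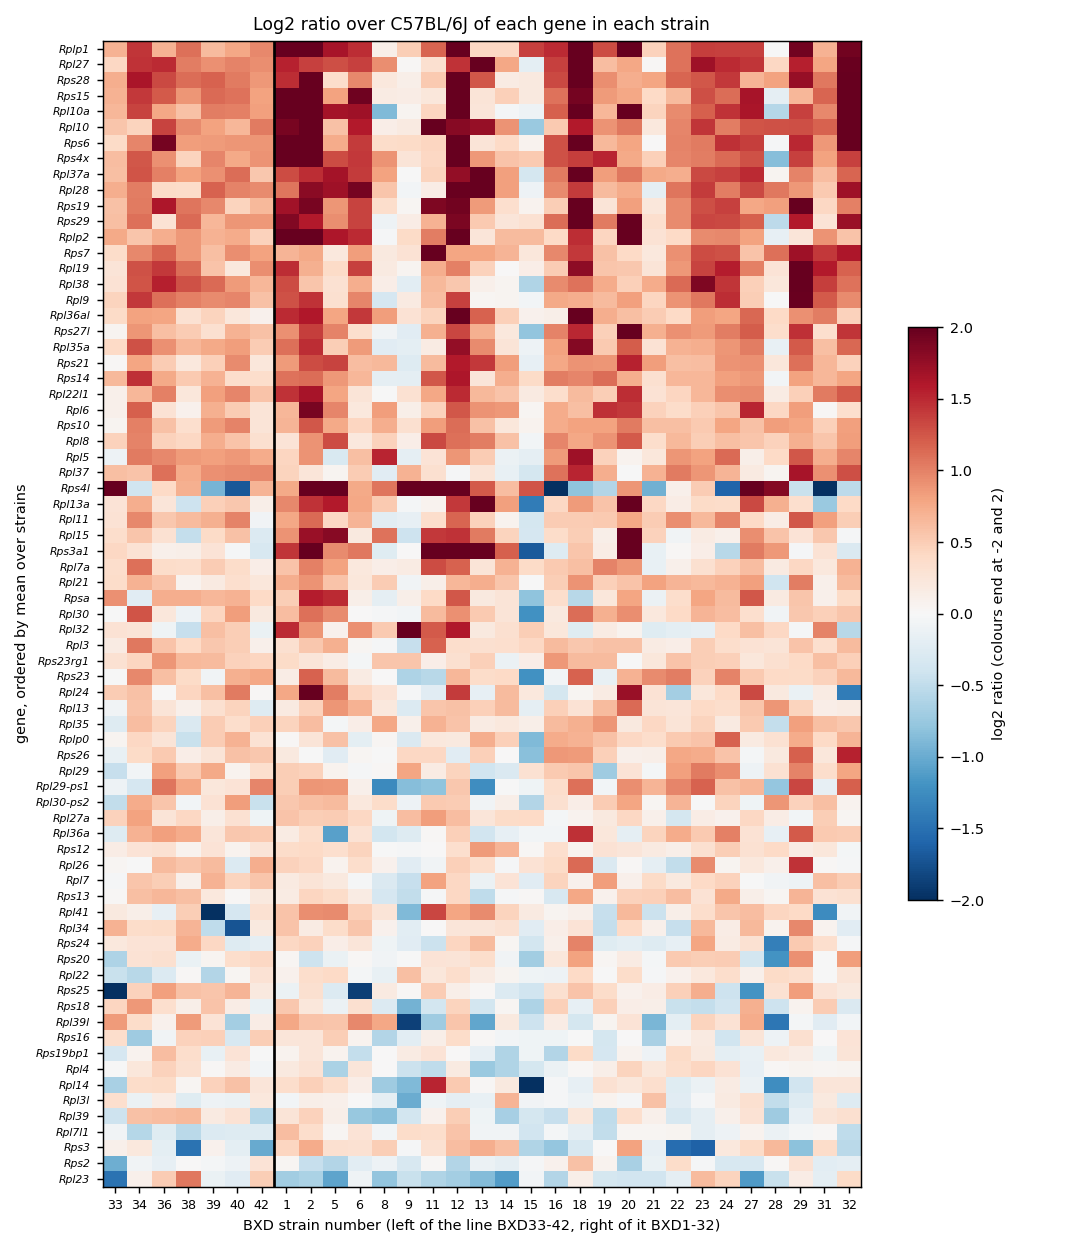
Log2 ratio over C57BL/6J of every member (rows, ordered by mean) in every strain (columns), with BXD33-42 left of the black line and BXD1-32 right of it. Red is above the reference and blue below, and colours end at -2 and 2. BXD2, BXD12 and BXD18 are dark red over the upper rows, BXD8, BXD9, BXD15 and BXD28 are pale or blue, and Rps4l departs from its neighbours in both directions.

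No member passed the test between BXD33-42 and BXD1-32. Of 73 genes, 0 were called (limma, adjusted p under 0.05, where 0.00662% of all genes were called), the smallest adjusted p being 0.150. At an unadjusted p under 0.05 there were 4 members, 1 higher and 3 lower in BXD33-42, where 12.9% of all genes passed, 5.43% higher and 7.47% lower in BXD33-42. Differences were negative in 44 members and positive in 29, with a median of -0.07. Rpl22 had the smallest p. Its ratio ran from -0.58 through a median of -0.27 to 0.29 in BXD33-42 and from -0.15 through 0.19 to 0.60 in BXD1-32, a difference of -0.40 ± 0.108 (SE, limma adjusted p = 0.150). The sets overlapped, and among the settings run the call was made with array weights only, where the difference was -0.48 (limma adjusted p = 0.0461), while with spot places removed it was -0.18 (limma adjusted p = 0.582). Rpl7l1 averaged -0.31 ± 0.176 in BXD33-42 and 0.02 ± 0.287 in BXD1-32 (SD), a difference of -0.34 ± 0.120 (SE, limma adjusted p = 0.220). All 7 strains of BXD33-42 were below 0 for this gene. Within BXD1-32 it averaged -0.13 ± 0.198 in BXD15-32 and 0.24 ± 0.259 in BXD1-14 (SD). Rpl36al averaged 0.44 ± 0.271 and 0.86 ± 0.552 in these sets (SD), with a difference of -0.43 ± 0.209 (SE). Rps18, a small subunit protein, averaged 0.34 ± 0.329 in BXD33-42 and -0.03 ± 0.436 in BXD1-32 (SD), a difference of 0.37 ± 0.174 (SE). With the more variable of its 2 probes alone the difference of Rps18 was 0.76. The differences of Rps21 and Rpl41 were -0.35 ± 0.183 and -0.51 ± 0.273 (SE). With the first principal component as a covariate that of Rps21 was -0.22, and that of Rpl41 was -0.95 with array weights and -0.33 with spot places removed. None of these passed. For Rpl36al, Rps18, Rps21 and Rpl41 with unweighted arrays, averaged probes and no covariate the adjusted p lay between 0.362 and 0.429 in limma. The earlier set was not uniform for some of these genes. Means in BXD15-32 and BXD1-14 were 0.72 and 1.06 for Rpl36al and 0.73 and 0.90 for Rps21. They were 0.09 and 0.58 for Rpl41, but 0.16 and 0.21 for Rpl22 and -0.02 and -0.05 for Rps18. The cause was not tested. In several of the genes with the highest means the SD was smaller in BXD33-42 than in BXD1-32, though spreads were not tested. Rps15 was at 1.04 ± 0.251 in BXD33-42 and 1.13 ± 0.986 in BXD1-32 (SD). Within BXD1-32 the SD of Rps15 was 0.644 in BXD15-32 and 1.34 in BXD1-14.

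**Figure D4:**
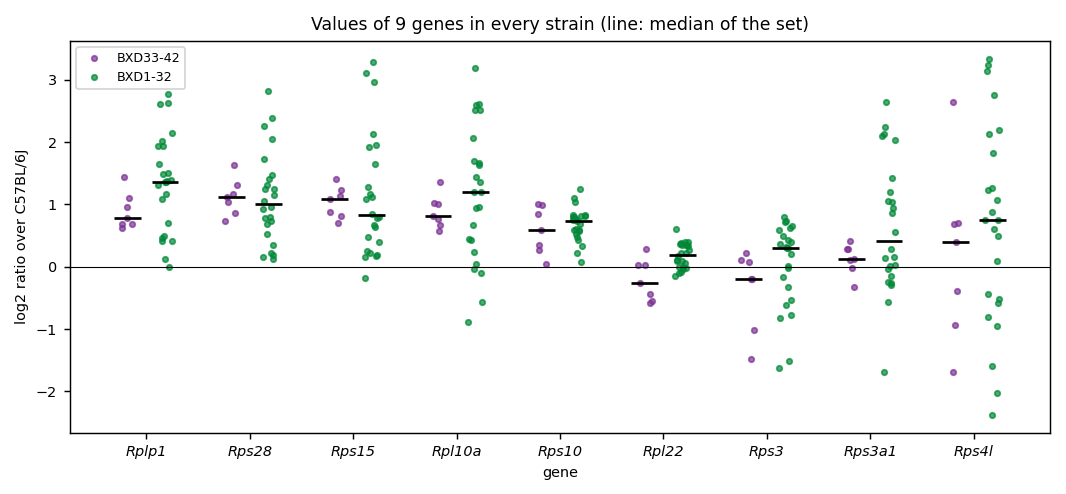
Log2 ratio over C57BL/6J of 9 members in each strain, with BXD33-42 left and BXD1-32 right for each gene, and a black line at the median of each set. Rps28 and Rps10 are above 0 in all strains, the values of Rpl22 in BXD33-42 have a median of -0.27 against 0.19 in BXD1-32, and Rps4l spans -2.38 to 3.34.

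The members moved together over strains. The mean of the 2628 pairwise correlations was 0.239 over the 31 strains, against 0.00272 over pairs of all genes, with 81.2% of member pairs above 0 and 17.1% above 0.5. With spot places removed the members' mean correlation was 0.150 and that of all genes 8.43e-04, so it was smaller by more than 1.5 times. The mean of all members with a small subunit name and the mean of all other members correlated at 0.962 (Spearman 0.944), and at 0.957 without BXD2 and BXD12. Both means include genes that are not structural. Among structural genes, pairs across the subunits averaged 0.269, pairs within the small subunit 0.259 and pairs within the large subunit and stalk 0.242. Pairs of genes that are not structural averaged 0.120. All these values are descriptions of arrays that share a reference and a normalization.

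Rpl35a followed the mean of the other members most closely, at 0.897, and its 2 probes correlated at 0.580, the highest of the 8 genes with a pair of probes. Rpl10a at 0.827, Rps6 at 0.818, Rps19 at 0.806, the paralog Rps27l at 0.803 and Rps29 at 0.799 came next. The closest single pair was Rps15 with Rps6 at 0.920, followed by Rpl10a with Rps29 at 0.907. In all, 38 members were above 0.5 and 6 below 0.1. The 6 were Rpl32 at -0.07, Rps2 at -0.06, Rps23rg1 at -0.01, Rps4l at 0.00, Rpl23 at 0.07 and Rpl3l at 0.08. Rpl32, of the large subunit, was nevertheless higher in the panel mean, at 0.41 ± 0.114 (limma adjusted p = 0.00262), and its highest strain was BXD9 at 2.60, a strain in which only 34 of the 73 members were above 0. Rpl23 ran against Rps3 over strains, with a correlation of -0.649. The 9 members with means above 1 all had correlations from 0.654 to 0.827 with the rest. With spot places removed these 9 ran from 0.571 for Rpl37a to 0.779 for Rps6, and Rpl35a was at 0.847. The counts above 0.5 and below 0.1 were made with spot places kept, and single members depend on that. With places removed Rpl21 went from 0.651 to 0.207, Rpl39 from 0.599 to 0.279 and Rps13 from 0.526 to 0.134. Rps19bp1 rose from 0.252 to 0.539.

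**Figure D5:**
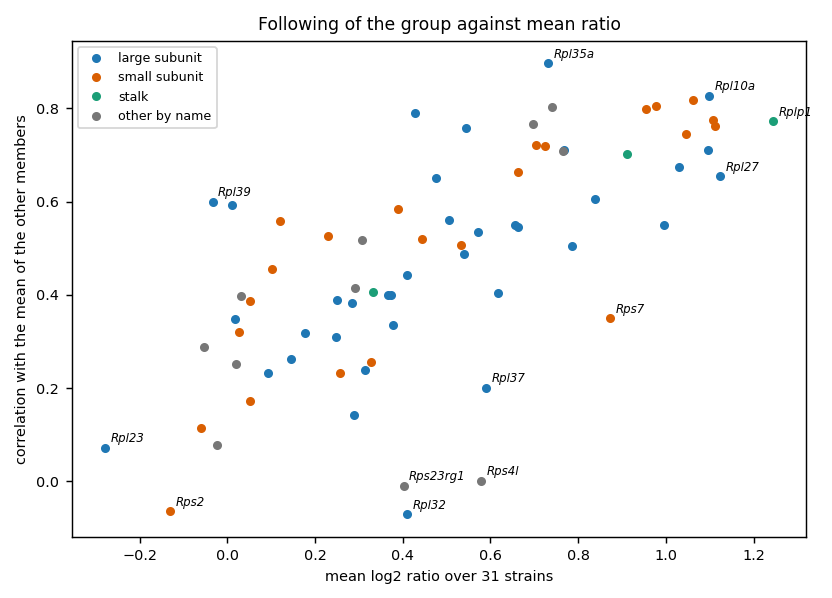
Correlation of each member with the mean of the other members over 31 strains (y axis) against its mean log2 ratio (x axis), coloured by subunit. Spot places are kept in these values. Members with means above 1 have correlations of 0.654 to 0.827, Rpl35a is highest at 0.897, and Rpl32, Rps4l and Rps23rg1 lie near 0 despite means of 0.40 to 0.58.

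For the 8 genes with 2 probes, the probes often differed. Their correlations over strains ran from -0.270 for Rps12 to 0.580 for Rpl35a with a median of 0.257, and 1 of 8 was above 0.5. The means of the probe pairs were 0.38 and -0.28 for Rps18, 0.57 and -0.06 for Rps12, 0.25 and -0.20 for Rps16, 0.48 and 0.10 for Rpl27a and 0.63 and 0.25 for Rpsa. In Rps18, Rps12, Rps16 and Rpsa the higher probe had a RefSeq messenger RNA accession and the lower another kind. Over all members, the 54 probes with such an accession had a median of 0.54, with 50 above 0, and the 27 others a median of 0.29, with 21 above 0. With RefSeq messenger RNA probes alone 54 genes could be measured, and 44 were higher and none lower. Rpl23, called lower with all probes, has no such probe and could not be called there.

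Other genes of the translation machinery are given by the same test, in which 26.5% of all genes were higher and 29.3% lower. Fau, which encodes a small subunit protein fused to a ubiquitin-like one and so escapes the naming rule, averaged 0.96 ± 0.102 (limma adjusted p = 2.50e-09) and correlated at 0.769 with the members. Of 11 genes of elongation and nascent chain handling, 8 were higher and 2 lower, with a median of 0.28. Naca at 0.61, Eef1a1 at 0.47 and Eef1g at 0.46 were the highest, and Btf3 at -0.28 and Eef1e1 at -0.24 the lowest. Naca and Btf3, the partners of the nascent polypeptide-associated complex, thus had opposite calls. Of 23 genes of translation initiation, 12 were higher and 4 lower, with a median of 0.13. The list includes Eif4ebp1, which is not an initiation factor but encodes a protein that binds Eif4e and restrains initiation. Eif4ebp1 at 0.48, Eif4g2 at 0.44 and Eif3c at 0.42 were the highest, and Eif3b at -0.54 was lowest and called lower. Eif3h averaged -0.22 ± 0.140 and did not pass.

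Of 32 ribosome assembly factors, 11 were higher, 11 lower and 10 did not pass, with a median of -0.03. These shares are near those of all genes. Fbl, the methyltransferase fibrillarin, at 0.59, Nhp2 at 0.51 and Utp14a at 0.30 were higher, whereas Ltv1, an export factor of the small subunit, at -0.79 and Sbds, which matures the large subunit, at -0.72 were lower. Sbds was below 0 in all strains. Of 12 regulators of translation, 2 were higher and 3 lower. Tsc2 at 0.76, Eif2ak3 at 0.32 and Mknk2 at 0.12 had the highest means, the last not past the test, and Mknk1 at -0.79 and Eif2ak4 at -0.31 the lowest. Of the 72 mitochondrial ribosomal proteins, 39 were higher and 6 lower, with a median of 0.17 beside 0.43 for the cytosolic ones.

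Several measures moved with the members' mean over the 31 strains. The mean of 19 abundant transcripts that are not ribosomal correlated with it at 0.856 (Spearman 0.824), and at 0.831 without BXD15 and BXD33. Of these abundant genes 11 were higher than C57BL/6J and none lower, with a median of 0.26, and Ndufa1 at 1.04, Cox6c at 0.90 and Ppia at 0.74 led, while Cfl1 at -0.15 and Tmsb4x at -0.11 were the lowest and did not pass. Elongation genes correlated at 0.723, and at 0.719 without the 2 strains farthest from the median of the list. Initiation genes correlated at 0.629, and at 0.406 without BXD12 and BXD15. Mitochondrial ribosomal proteins correlated at 0.570, and at 0.354 without BXD2 and BXD15. Of the tissue marker lists, 17 proximal tubule genes correlated at 0.630 (Spearman 0.560), with a list mean from -0.54 in BXD38 to 1.10 in BXD2. In that list 8 genes were higher and 1 lower. The 3 measured erythroid genes correlated at 0.647, and at 0.524 without BXD28 and BXD15, with a list mean from -0.72 in BXD15 to 0.84 in BXD12. Singly, Hba-a1 correlated at 0.632, Alas2 at 0.268 and Epb42 at 0.0532. Hba-a1, with a mean of -0.42, was called lower, while Alas2 at 0.33 and Epb42 at 0.29 were called higher. The 7 glial genes correlated at -0.561, with a list mean from -0.37 in BXD1 to 0.29 in BXD42. Gapdh correlated at 0.440, and at 0.102 without BXD2 and BXD15. Of the principal components of all other genes, the first, with 21.9% of the variance, correlated at 0.115, and at 0.0662 without BXD38 and BXD20. The fourth, with 7.33%, correlated at 0.683. The part of these measures in the members' values was not tested.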

How the data were processed

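Ratios of strain to C57BL/6J RNA from 31 arrays of 23040 probes were used. Per the submitters' processing notes the authors worked with R 2.0.0 and limma, and the steps are not given in the sources used here. The deposited values are read as log2 ratios. Sorted values were identical in all 31 columns, so the deposited arrays had been quantile normalized, and 0 columns were left unused. Signal over background is not known, and the number of arrays limits the precision. Gene names came from the platform table (16874 probes with 1 name, 134 with several, 6032 with none), and probes of a gene were averaged.

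Means over strains, and BXD33-42 minus BXD1-32, were tested with lmFit and eBayes of limma 3.58.1 in R 4.3.3 (2-sided, Benjamini-Hochberg at 0.05 over 15096 genes), after a test on simulated data. The members, gene lists and ranges of strain numbers were chosen with earlier results of these data known. Named were the 12 highest and 8 lowest means, the stalk genes, Rps6, Rpsa, Rps19, Rpl5 and Rpl11, the 6 smallest p between the sets, the 5 largest and 5 smallest SDs, the 6 highest and 6 lowest correlations, the 6 widest probe pairs, all members that are not structural, and the 3 highest and 2 lowest of each pathway list. Other genes were named after their values were seen. Lists of loop and distal tubule, collecting duct, podocyte, endothelial, macrophage, lymphocyte, fat, muscle and neuronal genes were set beside the members in the same way. Alternatives covered scaling, spot place, arrays left out, strain ranges, probe choice, array weights, filters, robust and thresholded tests.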

Additional observations from a re-analysis of the deposited data

Results flagged for a closer look

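Within the 7 strains of BXD33-42, 74 sets of values were examined for a strain far from the others, and 7 had one. For independent sets of normal values chance alone gives about 1 in 20. The sets examined share the same 7 arrays and are not independent, and the share over all genes was not computed. Their number is therefore no result about the members. Each value below lay apart from its nearest neighbour by more of the range than Dixon's critical value of 0.568 allows. BXD33 was low for Rps25, a small subunit protein, at -2.56 with the next strain at 0.19, for Rps2 at -0.98 with the next at -0.16, and for Rpl5 at -0.10 with the next at 0.75. BXD34 was high for Rps14 at 1.46 with the next at 0.76, and for Rpl7a at 1.10 with the next at 0.51. BXD36 was high for Rps6 at 1.91 with the next at 0.97. BXD39 was low for Rpl41, a very small large subunit protein, at -2.17 with the next at -0.34. BXD33 also had the lowest median over members in its set.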

How the results depend on the processing

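Under the alternatives run on all arrays or without BXD15, BXD38 or both, with averaged probes, 53 to 57 members were higher, except 39 with a required log2 change of 0.2. With each probe fitted by itself 58 of 81 probes were higher, among structural genes alone 48 of 62, and with RefSeq messenger RNA probes 44 of 54. From strain ranges alone 50 were higher in BXD1-14, 48 in BXD15-32, 55 in BXD1-32 and 35 in BXD33-42, the last from 7 arrays. Outside the main fits the share of all genes called was not counted. A larger or smaller count under another setting is therefore no result about the members. The median of the members' means was between 0.40 and 0.54 in the 14 settings for which it was computed. The mean pairwise correlation was 0.150 with spot places removed and otherwise 0.179 to 0.305. The number of lower members, 2, was 1 with quantile normalization repeated, with robust eBayes, with the least variable 10% of genes left out and in BXD1-32 alone, 0 in BXD15-32 alone, in BXD33-42 alone, with a required change of 0.2 and with RefSeq messenger RNA probes only (chosen after seeing the data), and 4 with each probe by itself. With RefSeq messenger RNA probes only, Rpl23 was not measured and so could not be called lower. Between the sets, array weights called 1 member and the other settings 0. In BXD1-14 alone the means of Rpl7l1 (0.24), Rps3 (0.45) and Rpl29-ps1 (-0.13) reversed, as did Rpl23 (0.042) in BXD33-42 alone. The cause was not tested. Of 666 values of 40 named genes over 18 settings, 634 kept direction and side of the threshold, 24 lost and 4 gained the call, and 4 reversed. The 634 include 27 values of the setting with structural genes alone, which come from the main fit and could not differ. Centring each array on its median could change little, because the deposited arrays already shared one distribution. No paired analysis was possible because the numbers in the labels are strain numbers, which the sets do not share.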

Other observations

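Outside the ribosomal proteins, the genes that followed the members' mean most closely over the 31 strains, chosen after their values were seen, were the kinase gene Src at 0.865, the sodium channel subunit Scnn1a, also in the collecting duct list, at 0.856, the ATP synthase subunit Atp5e at 0.825, the heparan sulfate polymerase Ext2 at 0.813, Nat8f1 at 0.807 and the actin-severing protein gene Dstn at 0.80. Their mean log2 ratios over C57BL/6J were 1.17, 0.46, 0.64, 1.25, 1.08 and 0.89 in that order, all past the test in limma. Src and Ext2 thus had means as high as the leading ribosomal proteins.

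Of the remaining tissue marker lists, collecting duct genes correlated with the members' mean at 0.513, and at 0.406 without BXD36 and BXD15. Among these 9 genes Scnn1a was at 0.856, Atp6v1b1 came next at 0.393, and Slc4a1 was lowest at -0.121. Loop and distal tubule genes correlated at 0.471, and at 0.110 without BXD9 and BXD15. Fat genes were at 0.314, macrophage at 0.226 and podocyte genes at 0.0545, and without the 2 strains farthest from each list's median at 0.0889, 0.0299 and 0.147 in that order. Endothelial genes were at 0.344, lymphocyte at -0.136, neuronal at -0.177 and skeletal muscle genes at -0.178. Regulators of translation were at 0.164 and ribosome assembly factors at -0.203, and at 0.0580 and -0.133 without their 2 farthest strains. Of the skeletal muscle genes 7 of 9 were lower than C57BL/6J and none higher, with a median of -0.27, where 29.3% of all genes were lower and 26.5% higher.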
